A study of Bos taurus with 12 samples.

Results

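The muscle acetylcholine receptor and the proteins that gather it under the nerve terminal were followed here through 10 genes of cultured bovine muscle cells. They are the 5 receptor subunit genes CHRNA1, CHRNB1, CHRND, CHRNG and CHRNE, and the 5 genes of the clustering pathway, AGRN, LRP4, MUSK, DOK7 and RAPSN. Members were matched to the data by gene symbol alone, as entries of the gene table and as m6A peaks annotated to those symbols. All 10 were found among the 18436 genes of the table, and together they held 18 of 19739 m6A peaks in myoblasts and 17 of 20790 in myotubes.

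The cells were primary myoblasts from the longissimus dorsi muscle of newborn Qinchuan cattle, taken from a single calf according to the methods of the study. GM denotes proliferating myoblasts at 80% confluence in DMEM/F12 growth medium with 20% fetal bovine serum. DM denotes myotubes at 100% confluence after 4 days in DMEM/F12 with 2% horse serum, and both media contained penicillin and streptomycin. Each group had 3 input libraries (poly(A) RNA) and 3 libraries immunoprecipitated with an m6A antibody (IP), 12 in all. No gene was altered and no nerve was added in either group. As the cells came from 1 animal, p-values measure the spread between these cultures, which may be technical.

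In a muscle fibre, acetylcholine released by the motor neuron opens a pentameric channel built from alpha, beta and delta subunits with either gamma, in fetal muscle, or epsilon, in adult innervated muscle. Agrin from the nerve binds LRP4, which activates the receptor tyrosine kinase MuSK. The adaptor Dok-7 sustains MuSK activity, and rapsyn ties the receptors into dense clusters beneath the nerve ending. Cultured myotubes make these proteins without a nerve, and N6-methyladenosine (m6A) is a methyl mark on their mRNA that lies most often near stop codons and in 3′ UTRs.

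The labelled cell types were checked on their defining markers first. A gene was called where limma on log2(FPKM + 1) gave an unadjusted p under 0.05 and the groups differed by more than 1.5-fold, FPKM being read fragments scaled to transcript length and library size. Of 10 myotube markers, 7 were called higher in DM, among them MYH3 (273 ± 2.74 to 659 ± 15.0 FPKM, SD, n = 3) and CKM. MYOG, MYMK and MYMX, which act in early differentiation and fusion, were not called, and MYOG already stood at 197 ± 8.95 FPKM in GM. All 5 proliferation markers and 4 of 7 myoblast markers were called lower in DM. Among the latter was PAX7, a satellite cell factor (1.08 ± 0.0972 to 0.0624 ± 0.0339 FPKM, log2 change -0.97, limma adjusted p = 4.48e-05). Its level was low already in GM. Fibroblast markers were abundant except TCF21 (2.15 ± 0.123 FPKM in GM, 1.68 ± 0.188 FPKM in DM). The 7 genes summed to 10284 to 10431 FPKM in GM and to 11635 to 12199 FPKM in DM, mostly from COL1A1 and COL3A1. None of them was called. An unadjusted p under 0.05 (limma) held for 4, of which PDGFRA, DCN and COL3A1 were higher in DM and TCF21 lower. The part of these markers in the results was not tested. Of 7 neuron markers in the table, SLC5A7 and RBFOX3 were listed at or near 0, but STMN2 and ISL1 were read at 8.12 ± 0.714 and 5.25 ± 0.778 FPKM in GM. The list summed to 13.4 to 15.2 FPKM in GM and 4.10 to 4.61 FPKM in DM, and its part in the results was not tested. In bulk libraries, fewer cells of a type and less RNA per cell cannot be told apart.

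All 10 genes were read in all 6 input libraries, over a wide span of levels. By mean FPKM, a scale that corrects for transcript length, the order was CHRNG, CHRNA1, CHRND, RAPSN, CHRNB1, MUSK, LRP4, DOK7, CHRNE and AGRN. CHRNG exceeded 93.2% of the genes in the table and AGRN 27.2%. CHRND, RAPSN and CHRNB1 overlapped as neighbours in that order across the libraries. No library of any other gene reached the range of the gene next to it in the order. Summed over the 10 genes, the libraries held 116.8 to 126.1 FPKM in GM and 124.4 to 130.8 FPKM in DM.

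**Figure D1:**
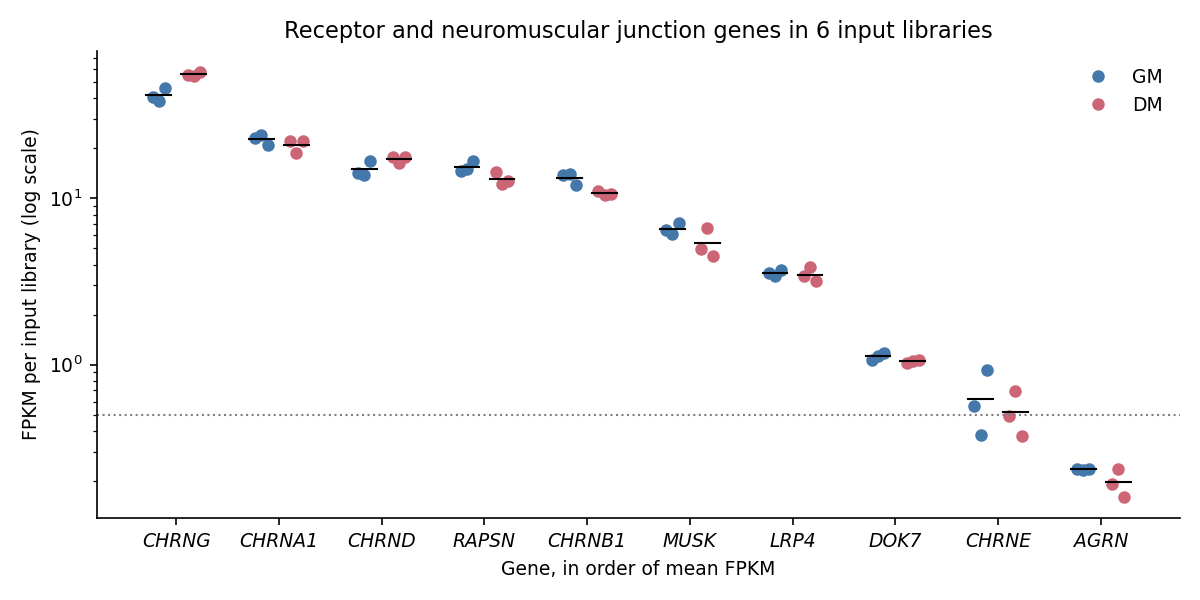
FPKM of the 10 genes in each input library, on a log axis, with GM in blue, DM in red, the group mean as a bar and the dotted line at 0.5 FPKM, below which a mean was not tested. CHRNG lies highest in every library, DM above GM, while CHRNE and AGRN lie under 1 FPKM in all 6 libraries.

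Transcript levels of these genes differed little between GM and DM. CHRNG was higher in DM and CHRNB1 lower, each by less than 1.5-fold, and the other tested members did not pass adjustment over all genes. None of the 9 tested members was called by limma, higher or lower, against 11.9% of all 12302 tested genes, 4.9% higher and 6.97% lower in DM. Without the minimum level, none of the 10 was called, against 8.08% of all 18436 genes. At an unadjusted p under 0.05, without the fold threshold, there were 4 members and 6241 of all 12302 tested genes. With Benjamini-Hochberg adjustment there were 2 (limma), against 42.8% of all tested genes, which divided into 16.1% higher and 26.7% lower in DM. The log2 change was within 0.5 of 0 in all 9, as in 84.1% of all tested genes. The GM and DM libraries did not overlap for 3 of the 9 members, against 54.1% of all tested genes. The calls of all tested genes comprised 603 higher and 858 lower in DM, or 970 and 792 after rescaling to TPM, in which each library sums to the same total. That rescaling moved the median log2 change of all tested genes from -0.05 to 0.06.

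Among the receptor subunits, the fetal gamma subunit gene CHRNG was the most abundant. It was read at 40.8, 38.7 and 46.3 FPKM in GM and at 55.2, 54.3 and 57.6 FPKM in DM. Every DM library lay above every GM library. The group means were 41.9 ± 3.96 and 55.7 ± 1.69 FPKM (SD, n = 3), a log2 change of 0.40 (SE 0.0704, 95% interval 0.24 to 0.57), with a limma Benjamini-Hochberg adjusted p of 0.00221. The log2 change was 0.53 after TPM scaling (limma adjusted p = 0.000294).

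The adult epsilon subunit gene CHRNE was barely expressed, at 0.562, 0.377 and 0.928 FPKM in GM and 0.490, 0.692 and 0.370 FPKM in DM. The groups overlapped, and the third GM library was the highest of the 6. The log2 change was -0.09 (95% interval -0.41 to 0.23, limma adjusted p = 0.65), and 0.044 without the third GM library. CHRNE overlaps C19H17orf107 on the opposite strand by 763 bases, and that gene averaged 0.0130 FPKM. The libraries kept strand, but whether the quantification used it is not given in the sources used here.

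In FPKM, gamma transcripts therefore exceeded epsilon transcripts by 72.6, 102.5 and 49.9 times in the GM libraries and by 112.6, 78.5 and 155.5 times in the DM libraries, with nothing added to either value. The groups overlapped through GM 2 and DM 2. With 0.1 FPKM added to each gene, the log2 ratio was 5.93 ± 0.424 in GM and 6.53 ± 0.418 in DM (SD, n = 3), a difference of 0.60 with p = 0.2 in a two-sided exact permutation test. With 3 libraries against 3, that test cannot give a p below 0.1. Leaving out 1 library at a time moved the difference between 0.38 (without GM 3; 0.40 without DM 3) and 0.81 (without DM 2, or without GM 2).

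CHRNA1 encodes the alpha subunit, which carries most of the acetylcholine binding site. It was read at 23.1, 24.0 and 21.0 FPKM in GM and at 22.3, 18.6 and 22.2 FPKM in DM, with overlapping groups. The means of 22.7 ± 1.56 and 21.0 ± 2.07 FPKM (SD, n = 3) gave a log2 change of -0.11 (95% interval -0.30 to 0.08, limma adjusted p = 0.328). The change was 0.012 after TPM scaling, so its sign depended on the scaling. Leaving out 1 library at a time, it ran from -0.16 (without GM 3) to -0.027 (without DM 2), and was -0.067 without GM 2.

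CHRND, the delta subunit gene, lies 6088 bases before CHRNG on the same strand of chromosome 2. Its libraries were at 14.3, 13.8 and 16.8 FPKM in GM and 17.8, 16.4 and 17.6 FPKM in DM, where GM 3 exceeded DM 2. The log2 change was 0.20 (95% interval 0.02 to 0.38, limma adjusted p = 0.0712). It was 0.33 after TPM scaling (limma adjusted p = 0.00872), and 0.28 without the third GM library (limma adjusted p = 0.0053). Without any other single library it was 0.15 to 0.24, with a limma adjusted p of 0.0775 to 0.205.

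CHRNB1, the beta subunit gene, went the other way. It was read at 13.8, 14.0 and 11.96 FPKM in GM and at 11.1, 10.5 and 10.6 FPKM in DM, so every DM library was lower. The means of 13.2 ± 1.10 and 10.7 ± 0.303 FPKM (SD, n = 3) gave a log2 change of -0.28 (SE 0.0687, 95% interval -0.44 to -0.12, limma adjusted p = 0.0123). After TPM scaling it was -0.17 (limma adjusted p = 0.14).

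The make-up of the subunit transcripts was compared through their sum and shares. The 5 subunit genes summed to 92.4, 90.8 and 97.0 FPKM in GM and to 106.8, 100.6 and 108.3 FPKM in DM, which did not overlap. CHRNG supplied 44.1, 42.6 and 47.7% of that sum in GM and 51.6, 54.0 and 53.1% in DM, a difference of 8.12 percentage points. CHRNA1 supplied 24.96, 26.5 and 21.6% in GM and 20.8, 18.5 and 20.5% in DM, a difference of -4.41 percentage points. Neither share overlapped between the groups. Both are parts of the same sum, so a larger share of CHRNG leaves less for the others and the 2 differences are not independent. The 2 shares and the sum each gave p = 0.1 in a two-sided exact permutation test, the smallest p that 3 against 3 allows. The ratio of CHRNG to its neighbour CHRND was 2.86, 2.80 and 2.76 in GM and 3.09, 3.31 and 3.27 in DM (two-sided exact permutation p = 0.1). These shares and ratios are formed within a library, so a common scaling of the library leaves them as they are.

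**Figure D2:**
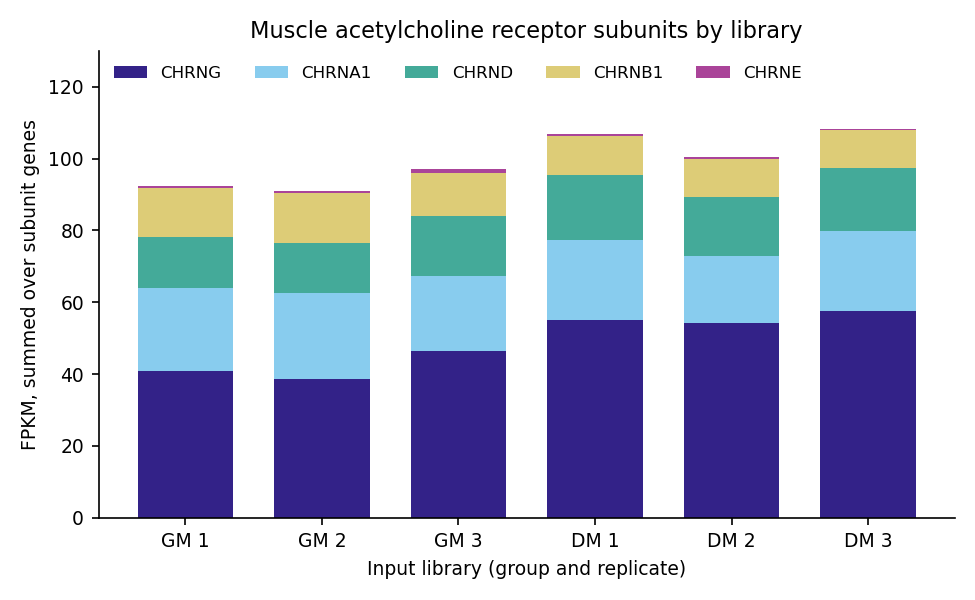
Stacked FPKM of the 5 acetylcholine receptor subunit genes in each of the 6 input libraries. The CHRNG block is taller in the 3 DM libraries (54.3 to 57.6 FPKM) than in the 3 GM libraries (38.7 to 46.3 FPKM), and the CHRNE block is under 1 FPKM throughout.

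Of the clustering pathway, AGRN, the gene of the nerve-released ligand agrin, was the least abundant. It was read at 0.237, 0.231 and 0.237 FPKM in GM and at 0.193, 0.236 and 0.161 FPKM in DM, and DM 2 lay inside the GM range. Its mean of 0.216 FPKM lay under the 0.5 FPKM minimum, so it was not tested in the main comparison. Without that filter, its log2 change was -0.05 (95% interval -0.12 to 0.03, limma adjusted p = 0.361).

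LRP4, the agrin receptor, was read at 3.57, 3.43 and 3.70 FPKM in GM and at 3.41, 3.85 and 3.17 FPKM in DM. The DM libraries enclosed the GM range. The log2 change was -0.03 (95% interval -0.21 to 0.14, limma adjusted p = 0.769), and turned to 0.075 after TPM scaling and to 0.018 without the third DM library.

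MUSK, the kinase, was read at 6.41, 6.09 and 7.13 FPKM in GM and at 4.95, 6.61 and 4.53 FPKM in DM. DM 2 lay among the GM libraries and the other DM libraries lay below them. The log2 change was -0.26 (95% interval -0.53 to 0.02, limma adjusted p = 0.118), and -0.39 without DM 2 (limma adjusted p = 0.0104). It was -0.16 without DM 3 (limma adjusted p = 0.328) and -0.17 after TPM scaling (limma adjusted p = 0.327).

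DOK7, the adaptor of MuSK, stayed near 1 FPKM, at 1.07, 1.13 and 1.17 in GM and 1.02, 1.05 and 1.07 in DM. Its log2 change was -0.05 (95% interval -0.22 to 0.11, limma adjusted p = 0.599), and 0.019 after TPM scaling. RAPSN, the scaffold, was read at 14.5, 15.0 and 16.9 FPKM in GM and at 14.4, 12.1 and 12.7 FPKM in DM. The RAPSN groups did not overlap, although DM 1 came close to the lowest GM library. Its log2 change was -0.23 (95% interval -0.41 to -0.04, limma adjusted p = 0.0507), and -0.29 without DM 1 (limma adjusted p = 0.03). It was -0.17 without GM 3 (limma adjusted p = 0.111) and -0.11 after TPM scaling (limma adjusted p = 0.299).

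**Figure D3:**
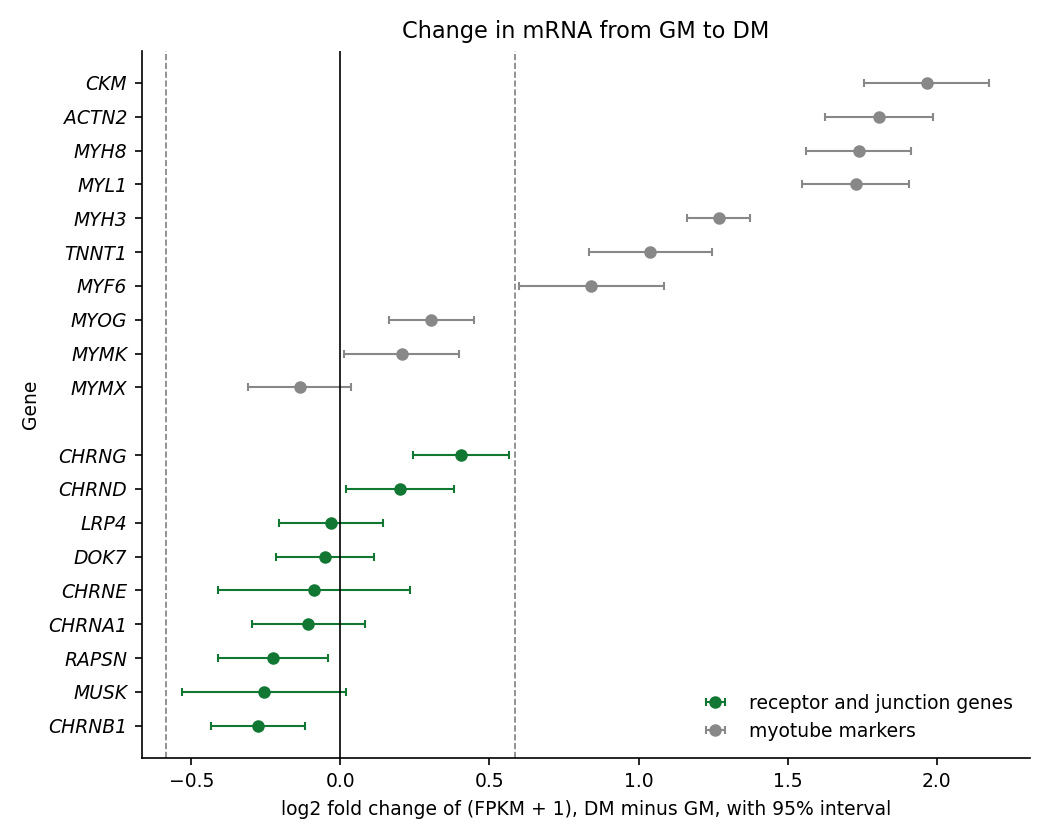
Log2 change of FPKM + 1 from GM to DM with 95% intervals (limma, 3 libraries per group) for the 9 tested receptor and junction genes (green) and the 10 myotube markers (grey), with dashed lines at 1.5-fold. The 9 green intervals lie inside the dashed lines, whereas 7 myotube markers lie beyond the upper line.

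Over the 6 libraries, the genes whose log2(FPKM + 1) lay closest to CHRNA1 were TERF2IP, ENSBTAG00000051479, which has no symbol in the table, and ZC3H7A, at Euclidean distances of 0.151, 0.155 and 0.158.

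The surrounding junction genes were described by 7 lists. Of 10 tested genes of the postsynaptic scaffold and the dystrophin-associated complex, 3 were called higher and none lower, with a median log2 change of 0.15 against -0.05 over all tested genes. They were DTNA, the alpha-dystrobrevin gene (1.17 ± 0.0456 to 4.35 ± 0.201 FPKM, log2 change 1.30), SNTB1 of the syntrophins (0.65) and the cytoskeletal linker MACF1 (0.63). UTRN, whose protein utrophin lies under the receptor clusters, had a log2 change of -0.47 (limma adjusted p = 0.00102), short of the 1.5-fold threshold.

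Of 21 tested partners of MuSK signalling, 2 were called higher and none lower (median log2 change 0.02). They included CTNNB1, the beta-catenin gene, at 87.2 ± 2.81 FPKM in GM and 149.5 ± 2.15 FPKM in DM (SD, n = 3). Of 8 tested genes of the synaptic basal lamina, NID1 and NID2 of the nidogens were called higher and the laminin gene LAMA5 lower (log2 changes 1.13, 0.59 and -0.81, list median 0.19). ACHE, the enzyme that degrades acetylcholine, was at 2.05 ± 0.242 and 1.86 ± 0.0235 FPKM (log2 change -0.09, limma adjusted p = 0.4), and both entries of COLQ, its collagen tail, were listed at or near 0.

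Of 5 tested entries for neuregulin, its receptors and EGFR, ERBB3 was called higher (2.26 ± 0.0381 to 5.86 ± 0.269 FPKM, list median 0.02). ERBB2, another neuregulin receptor gene, was at 9.16 ± 0.276 and 13.7 ± 0.597 FPKM. Its log2 change was 0.53 (limma adjusted p = 0.000157), short of 1.5-fold, and 0.68 after TPM scaling. EGFR and the NRG1 entries did not pass adjustment. Of 14 tested regulators of the subunit genes, 1 was called higher and 3 lower (median -0.16). MYF6 was higher (log2 change 0.84), and those called lower included MYF5 and MYOD1, which act at or before commitment (-1.97 and -1.28). MYOG, a direct activator of subunit genes, had a log2 change of 0.31 (limma adjusted p = 0.00464) without reaching 1.5-fold. Of 5 tested glycosylation genes whose loss causes congenital myasthenia, none was called by limma (list median -0.09). Only 1, ALG14, had an unadjusted p under 0.05, and it passed adjustment too. It went from 18.6 ± 0.521 to 12.7 ± 0.342 FPKM (log2 change -0.51, limma adjusted p = 0.000114). Of 5 tested genes of membrane excitation, RYR1, the calcium release channel, was called higher (1.16 ± 0.0363 to 4.38 ± 0.0873 FPKM, list median 0.39), whereas the sodium channel gene SCN4A averaged 0.0574 and 0.0562 FPKM.

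Transcripts of all 10 genes carried m6A peaks in both groups. A peak is a stretch of exon where exomePeak found IP reads enriched over input, and its fold enrichment is that linear ratio, given once per group from pooled libraries and therefore without error or test. Among genes averaging 0.5 FPKM or more, 70.9% had a peak in GM, 78.7% in DM and 68.6% in both. Among all genes of the table, the shares were 57%, 63.3% and 53%. Of the member peaks, 12 of 18 in GM and 10 of 17 in DM were annotated to a 3′ UTR, against 42.6% and 45.3% of all peaks. A false discovery rate under 0.05 held for 16 of the 18 GM peaks (90.3% of the whole list) and for all 17 DM peaks (88.8% of the whole list). The GM exceptions were both in AGRN. Median fold enrichment was 4.46 in GM and 3.43 in DM for member peaks, and 3.27 and 3.38 for all peaks.

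Of these, 10 pairs matched 1 GM peak to 1 DM peak by exon overlap on the same strand. Fold enrichment changed by over 1.5-fold in 3 of them, against 25% of all 10239 such pairs. It was higher in DM in 1 pair (14.2% of all pairs) and lower in 2 (10.8%). The median log2 ratio was 0.07 for the 10 pairs and for all pairs.

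**Figure D4:**
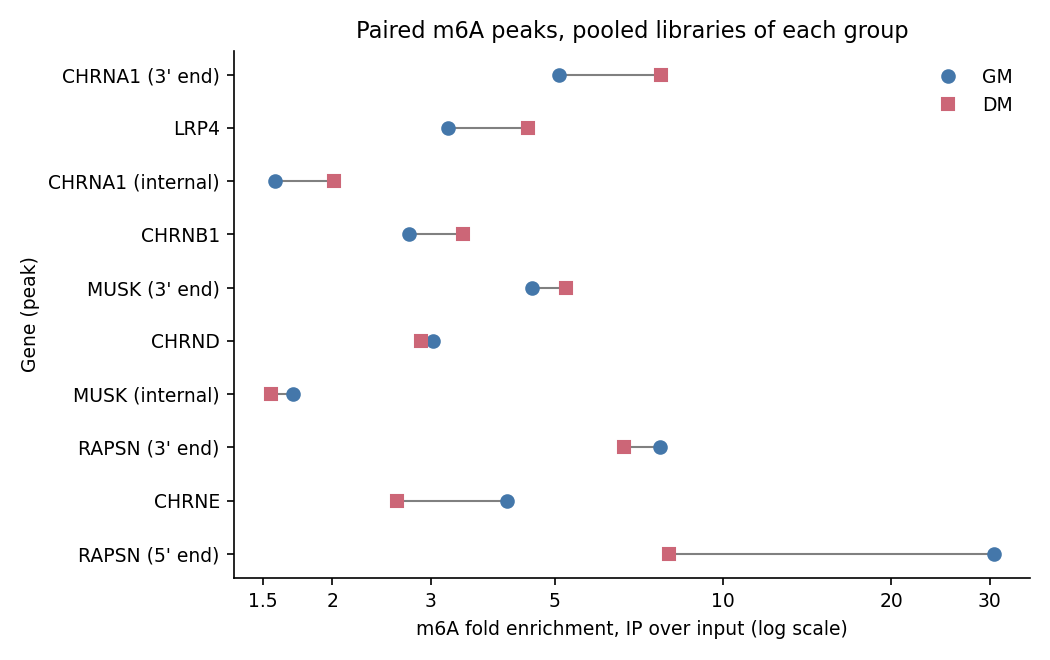
Fold enrichment of IP over input in the 10 matched peak pairs, on a log axis, with GM as blue circles and DM as red squares, each from the pooled libraries of a group. The RAPSN peak at the 5′ end lies at 30.5 in GM and 7.99 in DM, whereas the other pairs lie closer together.

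RAPSN held the widest gap among the member pairs. Its 5′ UTR peak covered the same 150 bases in both lists, chr15:77273422-77273571 on the minus strand (ARS-UCD1.2), beginning at the first base of the gene. Fold enrichment there was 30.5 in GM and 7.99 in DM, 3.82 times lower in DM, and 96 of the 10239 pairs had a lower ratio of DM to GM. The GM value exceeded that of 99.6% of GM peaks and the DM value that of 85.8% of DM peaks. The RAPSN peak at the 3′ end differed less, at 7.72 and 6.66. It covered 536 bases in GM and 447 in DM. In both lists, exomePeak gave the 5′ UTR peak a higher false discovery rate than the 3′ end peak, although under 0.05. The reads behind each peak were not analysed here, so the counting error of the 5′ UTR ratio and of its rank is unknown.

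The highest ratio of DM to GM among the 10 pairs was in CHRNA1, in the 3′ UTR. The peak ran over 960 bases in GM (chr2:22102931-22103890) and 1350 bases in DM (chr2:22102601-22103950), with fold enrichments of 5.08 and 7.76, a ratio of 1.53. An internal peak of CHRNA1, short of the 3′ end of the gene in both lists, was at 1.58 and 2.01. It was annotated to an exon in GM and to a 3′ UTR in DM. CHRNE had the other pair beyond 1.5-fold, at the 3′ end, with 4.11 in GM (210 bases) and 2.61 in DM (151 bases), in a transcript under 1 FPKM.

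The remaining pairs stayed within 1.5-fold. In CHRNB1 the fold enrichment was 2.74 and 3.43, while the peak covered 150 exon bases in GM and 1106 in DM. CHRND was at 3.03 and 2.88, and LRP4 at 3.22 and 4.47 in its 3′ UTR. MUSK was at 4.55 and 5.24 in the peak that reached its 3′ end and at 1.70 and 1.55 in an internal peak.

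Other peaks had no single counterpart. In CHRNG, GM held 1 peak over 927 exon bases with a fold enrichment of 7.37 (chr2:120183271-120185721). In DM that span held 2 peaks, at 1.11 over 240 bases and at 4.15 over 598 bases up to the 3′ end. The lower of these exceeded 0.217% of DM peaks. AGRN had GM peaks of 16.3, 5.44 and 7.62 and a single DM peak of 12.8, all in the 3′ UTR of a transcript near 0.2 FPKM. DOK7 had GM peaks of 4.36, 3.95 and 4.57 and DM peaks of 4.97, 1.77 and 2.13, of which the last, in the 5′ UTR, overlapped no GM peak. LRP4 had an internal peak at exon 35 of 38 in GM (1.68) and another at exon 28 of 38 in DM (1.88), which did not overlap.

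**Figure D5:**
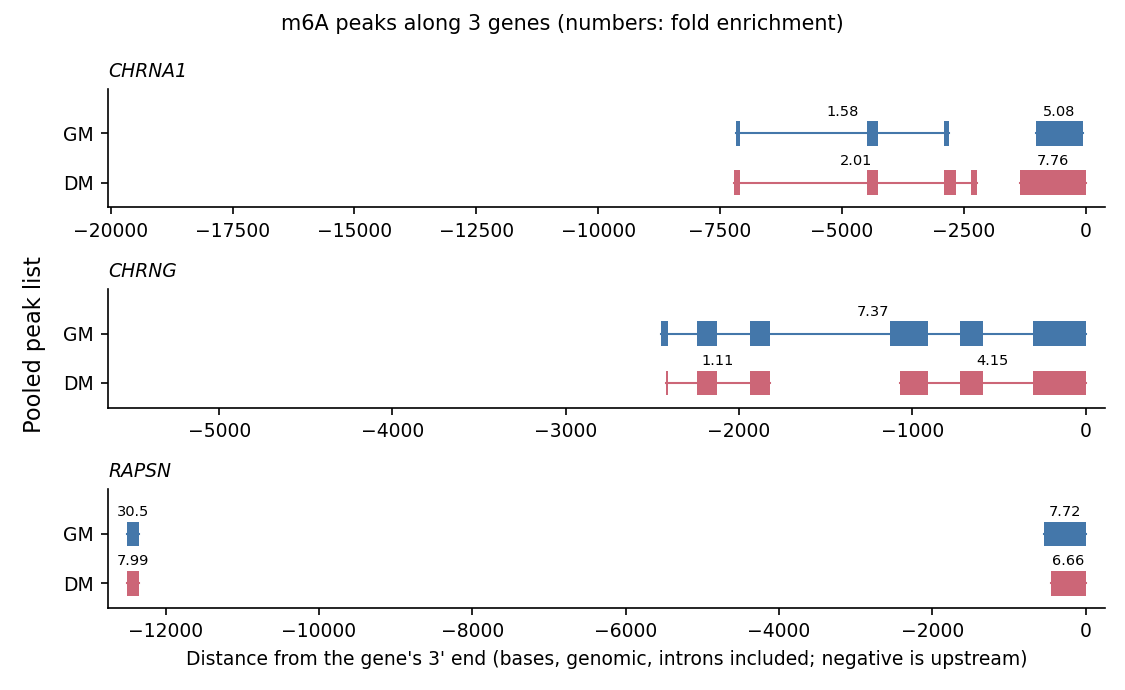
Exon blocks of the m6A peaks along CHRNA1, CHRNG and RAPSN, by distance in bases from the 3′ end of the gene, with GM in blue, DM in red and the fold enrichment above each peak. RAPSN has peaks at both ends of the gene in both lists, and the single GM peak of CHRNG (7.37) corresponds to 2 DM peaks (1.11 and 4.15).

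Among the 68 tested genes of the 7 junction lists, 55 had a peak in GM, 60 in DM and 55 in both. Over all 12302 tested genes, the shares were 70.9%, 78.7% and 68.6%. The 82 matched pairs of the junction lists comprised 8 with a fold enrichment over 1.5-fold higher in DM and 8 with one lower in DM. Over all 10239 pairs, 14.2% were higher and 10.8% lower.

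The members lie at 10 places on 6 chromosomes of ARS-UCD1.2. CHRNA1 (chr2:22084295-22103950), CHRND (chr2:120166846-120174104) and CHRNG (chr2:120180193-120185721) are on the plus strand, as are CHRNE (chr19:26484296-26489324), CHRNB1 (chr19:27116487-27131137) and MUSK (chr8:100188591-100282649). LRP4 (chr15:76789248-76840637) and RAPSN (chr15:77261076-77273571) lie 420438 bases apart on the minus strand, which also holds DOK7 (chr6:115390539-115424342) and AGRN (chr16:51422628-51461967). CHRND and CHRNG were the only members adjacent to each other in the gene table, and both had their higher group mean in DM.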

How the data were processed

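Expression was measured in the 6 input libraries and m6A in both kinds of library. Per the methods of the study, the authors trimmed strand-specific (dUTP) libraries with Trimmomatic, aligned them with HISAT2 to ARS-UCD1.2 and computed FPKM with StringTie, and the deposited gene table holds those FPKM values. The submitters' processing notes also name cutadapt, fastp and HOMER. Versions are not given in the sources used here. Sambamba kept unique, non-duplicate alignments, exomePeak called peaks on the pooled libraries of each group and ChIPseeker annotated them. The fold enrichment deposited with a peak is the IP to input ratio, which the authors left on a linear scale. The deposited p-value of each peak is at most 0.05, and the authors' false discovery rate is deposited as its log10. The study lists clean and mapped reads for each library, but read counts per gene and each library's own peaks were not analysed here. The counting error of a gene is therefore unknown from the gene table, and precision rests on 3 libraries per group.

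FPKM was analysed as log2(FPKM + 1) in R 4.3.3 with limma 3.58.1 (moderated variances with a trend, two-sided), for genes that averaged 0.5 FPKM or more, with Benjamini-Hochberg adjustment over 12302 genes. A log2 change on this scale understates the change of low genes. Sums, shares and ratios were tested by exact permutation over all 20 assignments of the libraries. Peaks were paired by at least 1 shared exon base on the same strand, in Python 3.11.15 with pandas 2.3.3 and numpy 2.4.6, and plots were drawn with matplotlib 3.10.9. Scripts were tested on simulated data. Named genes are the 10 members, up to 4 called genes of each junction list with the largest change, label-check markers, genes of the lists with a stated role, and the 3 genes closest to CHRNA1. The members and lists were chosen with earlier results of these data known. Some genes of the lists are counted but not reported by name here.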

Additional observations from a re-analysis of the deposited data

How the results depend on the processing

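Of 201 recomputed values, 185 counted as unchanged. Gene changes had to keep their direction and their side of an adjusted p of 0.05 (limma), and counts had to stay within 1.5 times. List medians, the gamma to epsilon ratio and the CHRNA1 share were checked for direction only. With the replicate number as a block, that ratio and that share could not differ from their main values. Changing the minimum level, the variance trend or the block leaves the log2 change of a gene as it is. In those settings only its adjusted p could differ. No member was called under any setting. Raising the fold threshold to 2 left 507 genes called of all tested, and 1 changed member pair, the RAPSN 5′ UTR peak. TPM scaling turned the sign of CHRNA1 to 0.012, of LRP4 to 0.075, of DOK7 to 0.019 and of the glycosylation list median to 0.028, and median-ratio size factors turned LRP4 to 0.018. Leaving out 1 library at a time gave log2 changes from -0.20 to 0.044 for CHRNE and from -0.091 to 0.018 for LRP4. The cause was not tested. CHRND had an adjusted p under 0.05 (limma) with size factors too (log2 change 0.26), as did RAPSN with a minimum mean of 1 FPKM (-0.23), but not RAPSN with size factors (-0.17, limma adjusted p = 0.133). Requiring overlap of 50% of both peaks gave 1 pair higher and 3 lower in DM, adding CHRNG (ratio 0.563), a minimum fold enrichment of 2 also gave 1 and 3, and centring on the median of all pairs gave 0 and 2. A false discovery rate under 0.001 kept peaks in 10 members in GM and 8 in DM.

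Whether same-numbered GM and DM cultures share an origin is not given in the sources used here. Deviations of same-numbered libraries from their group means correlated at -0.08, -0.12 and -0.21 over genes. Those of differently numbered libraries correlated at -0.06 to 0.19. The deviations within a group are tied to one another, so these values cannot decide whether the cultures are paired. With the replicate number as a block, 1473 genes and 0 members were called, and 2 members had an adjusted p under 0.05, against 1461, 0 and 2 without it. FPKM without read counts limits what can be said of CHRNE and AGRN, whose counting error is unknown.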

Other observations

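Other acetylcholine receptor genes were read at low levels. Of 7 neuronal nicotinic subunit and chaperone genes in the table, the summed level was 1.21 to 1.44 FPKM in GM and 0.578 to 0.951 FPKM in DM, and only CHRNA3, an alpha subunit of autonomic ganglia, reached the minimum for testing. CHRNA3 was read at 0.932, 0.984 and 1.05 FPKM in GM and at 0.202, 0.552 and 0.390 FPKM in DM, without overlap, and exceeded CHRNE of the muscle subunits in each GM library. Its log2 change was -0.53 (95% interval -0.78 to -0.29, limma Benjamini-Hochberg adjusted p = 0.00453), short of 1.5-fold on the log2(FPKM + 1) scale. With nothing added, the DM mean was 0.386 times the GM mean. After TPM scaling, CHRNA3 was called lower in DM (log2 change -0.77, limma adjusted p = 0.00944). The 3 muscarinic receptor genes in the table summed to at most 0.169 FPKM in any library.

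Of 7 neuron markers in the table, 3 were tested and 2 were called lower in DM. STMN2, a microtubule regulator, was at 2.09 ± 0.159 FPKM in DM (SD, n = 3; log2 change -1.56), and ISL1, a LIM homeodomain factor also known from motor neurons, at 1.73 ± 0.110 FPKM (-1.19). Of 6 Schwann cell markers in the table, 3 were tested, and PMP22 and ERBB3 were called higher in DM, while the list summed to 57.3 to 60.5 FPKM in GM and 90.9 to 95.5 FPKM in DM. Endothelial markers summed to at most 0.653 FPKM and leukocyte markers to at most 2.06 FPKM in any library. The part of these cell types in the results was not tested.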
